A study of Homo sapiens with 4 samples.

Results

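The cytosolic ribosomal proteins were described across 4 RNA-seq libraries of cells labelled NB4, with knockdown of LDB1 compared with its control. The genes were chosen by symbol alone, as RPL or RPS followed by a number, together with RPLP0, RPLP1, RPLP2 and RPSA, and pseudogene names were left out. This rule found 80 of the 28412 genes in the table, 32 of the small (40S) subunit and 48 of the large (60S) subunit. Lower RNA in bulk samples cannot be told apart from fewer cells of a type that is rich in it.

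Ribosomes translate every mRNA of the cell. The small subunit reads the codons, and the large subunit joins amino acids and holds the tunnel through which the new chain leaves. Ribosomal proteins are needed in equal number, so their genes are usually expressed together. Most of their mRNAs begin with a C and a run of pyrimidines, the 5' TOP (terminal oligopyrimidine) tract, through which mTORC1 and LARP1 set their translation. In blood formation, red cell precursors are known to be sensitive to a loss of ribosomal proteins, as in Diamond-Blackfan anemia.

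The control vector sh-NC was present in 2 libraries, and a vector expressing an shRNA against LDB1 (sh-LDB1) in the other 2. LDB1 is the adaptor that binds LMO2 and GATA1-TAL1 complexes. NB4 is a human promyelocytic leukemia line, and the labels call the control cells untreated. According to the methods, the vectors were carried by pLKO.1 lentivirus and infected cells were selected with puromycin, so both groups would share infection and selection. The study designed 3 shRNAs against LDB1, and which one was sequenced is not stated. The labels do not say that the replicates were separate cultures, so the p-values measure only the spread between these samples. They could be technical replicates.

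The deposited values were FPKM, fragments per kilobase of gene and per fixed number of mapped fragments. From the smallest steps between values, they had been divided by 14748175 to 16182015 fragments per library. With annotated gene lengths, the estimated reads were 1.17 and 1.18 times that divisor for sh-NC, against 1.08 and 1.07 times for sh-LDB1. These ratios rest on annotated lengths that the authors may not have used, and whether the scaling of the libraries differed was not tested. LDB1 (chromosome 10, 102106489 to 102120368, minus strand, GRCh38) was at 135.1 and 120.1 FPKM under sh-NC, against 10.2 and 9.47 FPKM under sh-LDB1. The labelled cell type was checked against its markers. Of 9 granulocytic genes, MPO and CTSG were not analysed here, ELANE was listed at 0 in both sh-NC libraries, and the sum of the list was 11.7 to 12.6 FPKM in sh-NC and 37.9 to 41.4 FPKM in sh-LDB1. The 12 red cell genes, such as the embryonic globin HBZ, summed to 4002 and 4169 FPKM under sh-NC, against 358 and 393 FPKM under sh-LDB1, and 12 of 12 were called lower. The controls thus held abundant red cell transcripts, which goes against the promyelocytic label. The part of these markers in the results below was not tested.

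The starts of the genes on which the results turn are shown first, because the pyrimidine run at the start is the best known shared feature of these mRNAs. Each line gives 20 bases before and 20 bases from the annotated start of RefSeq on GRCh38.p14, read 5′ to 3′ on the strand of the gene. Capitals mark a C at the start with at least 4 further pyrimidines, up to the first purine. The first 4 genes carry a tract and have large falls or the highest level. The next 3 have large falls and no tract at this start.
RPL24, chr3:101686699-101686738, minus strand: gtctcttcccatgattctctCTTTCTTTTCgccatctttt
RPL12, chr9:127451387-127451426, minus strand: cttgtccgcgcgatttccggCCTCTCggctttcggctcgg
RPL41, chr12:56116613-56116652, plus strand: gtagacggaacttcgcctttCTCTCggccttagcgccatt
RPS12, chr6:132814549-132814588, plus strand: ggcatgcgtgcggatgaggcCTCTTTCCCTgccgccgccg
RPL9, chr4:39458903-39458942, minus strand: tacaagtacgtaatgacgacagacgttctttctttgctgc
RPS4X, chrX:72277229-72277268, minus strand: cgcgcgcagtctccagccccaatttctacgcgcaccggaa
RPS7, chr2:3575240-3575279, plus strand: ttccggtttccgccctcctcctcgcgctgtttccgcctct

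The following 5 genes are examples of small or uncalled changes, chosen after their values were seen. The first 4 carry a tract of 7 to 12 bases, and the paralogue RPS27L does not. RPL15 and RPL17, which are not printed, also had small or uncalled changes and have no tract at their starts. RPL10 has 3 annotated starts, of which the one with the longest tract is shown.
RPS23, chr5:82278335-82278374, minus strand: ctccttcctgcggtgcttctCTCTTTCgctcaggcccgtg
RPS27, chr1:153990742-153990781, plus strand: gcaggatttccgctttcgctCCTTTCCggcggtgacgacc
RPL10, chrX:154398357-154398396, plus strand: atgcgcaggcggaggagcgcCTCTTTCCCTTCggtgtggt
RPL28, chr19:55385912-55385951, plus strand: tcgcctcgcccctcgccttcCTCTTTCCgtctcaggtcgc
RPS27L, chr15:63157458-63157497, minus strand: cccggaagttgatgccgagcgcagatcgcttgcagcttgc

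To determine whether the ribosomal protein genes changed with LDB1, the groups were compared with limma on log2(FPKM + 1) over 13300 genes whose mean reached 1 FPKM. Of the 80 genes, 79 passed this filter, and RPL3L did not. Results showed that 71 of the 79 were lower in sh-LDB1 at an adjusted p-value below 0.05, where 37.4% of all genes tested were called lower. None was called higher, where 29.9% of all genes were. Of the 79, 78 had a negative log2 fold change, and RPS27L, the only one above 0, had an unadjusted p-value of 0.43 (limma). With voom on estimated reads, 0 were called higher. The median log2 fold change of the 79 was -0.63, from -1.04 to 0.07, and the median of all genes tested was -0.08. In 74 of the 79, both sh-LDB1 libraries were below both sh-NC libraries, where 46.3% of all genes were. The falls were narrow in size, with 52 of the 71 between 0.5 and 1 on the log2 scale, 16 smaller and 3 larger.

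The size of the falls depended on the scaling. Scaling the libraries to the same summed FPKM shifted the median of all genes by 0.14 on the log2 scale, and scaling to the summed FPKM of all genes but the 80 shifted it by 0.11. The share of calls that were lower went from 55.6% as deposited to 45.4% and 47.8%, and to 49.6% with the median of ratios over genes. Of the 13300 genes tested, 4978 were called lower and 3983 higher as deposited, and 4047 and 4876 at equal summed FPKM. The counts were 4427 and 4498 with the median of ratios, and 4267 and 4660 with the summed FPKM of all genes but the 80. Of the 71 members called lower, 60 were called lower under all 4 scalings, 25 of the small and 35 of the large subunit, and 11 lost the call under at least one. The median of the members was -0.46, -0.50 and -0.53 under the other scalings. RPL10, RPL15, RPL39L and RPS23 turned from negative to positive under at least one scaling, and no member was called higher under any of the 4.

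**Figure D1:**
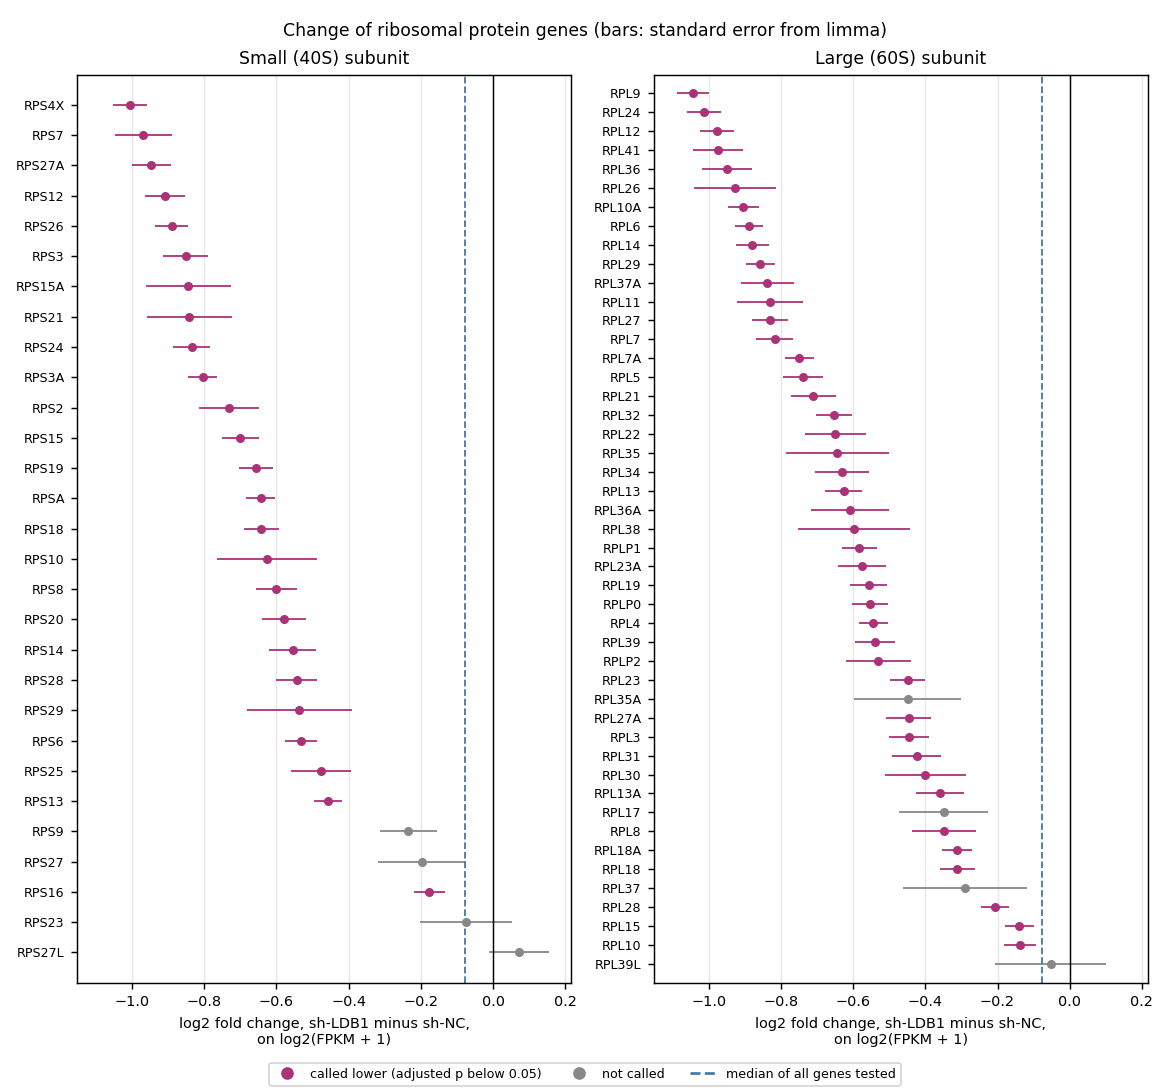
Log2 fold change of 76 of the 79 tested ribosomal protein genes on log2(FPKM + 1), sh-LDB1 minus sh-NC, as deposited, with the standard error from limma as bars and 2 libraries per group. Most points lie left of the dashed median of all genes (-0.08), from RPL9 at -1.04 to RPS27L at 0.07; under the scaling to equal summed FPKM the points at the lower ends of both panels (RPL10, RPL15, RPL39L and RPS23) turn positive.

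The 80 genes were expressed over a wide range of FPKM. In sh-NC, 66 of the 80 were at 100 FPKM or more in both libraries, and in sh-LDB1 57 were. RPS12, a protein of the small subunit head, had the highest mean FPKM. Its annotated exons were the shortest of the 80 (639 bases), and FPKM divides by length. It had 11118 to 21865 estimated reads, against 54826 to 79566 for RPL13A. RPS12 (chromosome 6, 132814569 to 132817564, plus strand) was at 2115 and 2234 FPKM under sh-NC, against 1164 and 1150 FPKM under sh-LDB1. RPL13A, known also as a translational repressor once released from the ribosome, was the most abundant of the large subunit, with 1523 and 1383 FPKM in sh-NC and 1138 and 1122 FPKM in sh-LDB1. RPS2, at the mRNA entry of the small subunit, followed with 1609 and 1404 FPKM in sh-NC and 883 and 925 FPKM in sh-LDB1. In each of these the sh-LDB1 libraries lay below both controls. Only RPL13A lost its call under a scaling, with an adjusted p of 0.064 (limma) at equal summed FPKM.

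RPL8 and RPL19, both near the RNA core of the large subunit, were at 1373 and 1174 and at 1133 and 1176 FPKM in sh-NC. In sh-LDB1, RPL8 was at 994 and 1001 FPKM and RPL19 at 801 and 768 FPKM. RPS18, of the small subunit head, was at 1253 and 1210 FPKM under sh-NC, against 796 and 782 FPKM under sh-LDB1. At 1000 FPKM or more in both libraries were 6 genes under sh-NC and 2 under sh-LDB1. The 5 most abundant members held 24.5% and 24.1% of the FPKM of the 80 under sh-NC, against 23.9% and 24.5% under sh-LDB1, so the weight of the leading genes was alike in the groups. RPL8 kept its direction but lost its call under each of the other 3 scalings.

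**Figure D2:**
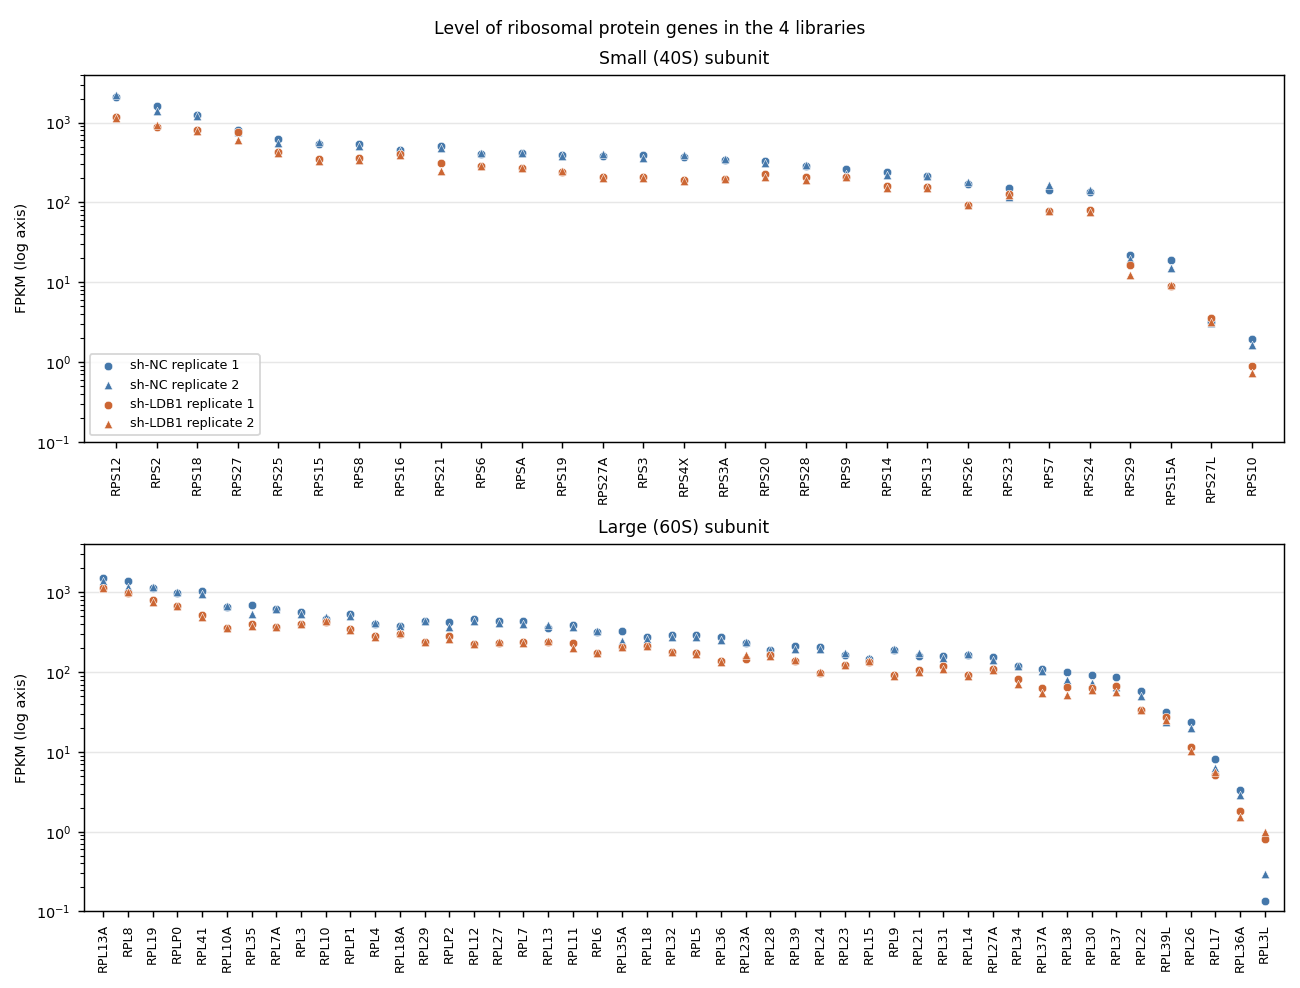
FPKM of 77 of the 80 genes on a log axis in the 4 libraries, small subunit above and large subunit below, ordered by mean level. The sh-LDB1 points (orange) lie under both sh-NC points (blue) for most genes, from RPS12 at 2115 and 2234 against 1164 and 1150 FPKM down to RPS10 at 1.97 and 1.64 against 0.90 and 0.73 FPKM, and RPL3L is at under 1 FPKM in all libraries.

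On the log2(FPKM + 1) scale, the largest falls were in RPL9, RPL24 and RPS4X, the 3 members called lower with a fold change below 0.5, a rule that 10.3% of all genes met (9.5% above 2, and no member). RPL9 (chromosome 4, 39452587 to 39458931, minus strand), a large subunit protein near the factor-binding site, was at 187 and 195 FPKM under sh-NC, against 93.4 and 90.7 FPKM under sh-LDB1. Both knockdown libraries were thus under the lower control, and 48.2% of the control mean was left. This was a log2 fold change of -1.04 ± 0.045 (SE, limma, adjusted p = 0.000152). RPL24 (chromosome 3, 101681091 to 101686733, minus strand), which forms a bridge to the small subunit, was at 207 and 195 FPKM and at 98.6 and 99.5 FPKM. The log2 fold change of RPL24 came to -1.01 ± 0.046 (SE, limma, adjusted p = 0.000165). RPS4X (X chromosome, 72255679 to 72277248, minus strand), the X-encoded copy of a small subunit protein, was at 369 and 390 FPKM and at 190 and 187 FPKM. RPS4X fell by 1.01 on the log2 scale (SE 0.047, limma, adjusted p = 0.000174). This scale shrinks the changes of low genes, and in FPKM itself RPS10 was at 45.2% of its control mean, against a log2 fold change of -0.63 on log2(FPKM + 1). The 2-fold threshold ran through the top of a continuous series. Under each of the other 3 scalings 0 members passed it, although all 3 genes were still called lower. Without sh-NC replicate 2 there were 7, without sh-LDB1 replicate 1 there were 6, and without sh-LDB1 replicate 2 there were 2.

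The next falls were close behind. RPL12, at the base of the stalk that receives translation factors, was at 457 and 433 FPKM under sh-NC, against 228 and 223 FPKM under sh-LDB1, a log2 fold change of -0.98. RPL41, the shortest of the ribosomal proteins, was at 1051 and 943 FPKM and at 516 and 496 FPKM, with -0.97. RPS7, a small subunit protein mutated in some cases of Diamond-Blackfan anemia, was at 144 and 166 FPKM and at 78.0 and 78.8 FPKM, with -0.97. In these 3 the groups did not overlap. RPL36 was at 278 and 250 FPKM and at 140 and 132 FPKM, with a log2 fold change of -0.95. RPS27A, whose protein is made as a fusion with ubiquitin, was at 379 and 407 FPKM and at 206 and 200.5 FPKM, with -0.95. All of the 8 largest falls were called lower under all 4 scalings.

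The small subunit was lower in 28 of its 32 genes (87.5%, against 37.4% of all genes tested), with a median log2 fold change of -0.64. Some proteins on the path of the mRNA were among them, chosen for their roles after their values were seen. RPS9 and RPS23, the latter at the decoding site, were not called (log2 fold changes of -0.23 and -0.07). RPS3, which lines the mRNA entry, was at 389 and 355 FPKM under sh-NC, against 209 and 202 FPKM under sh-LDB1. RPS26, at the mRNA exit, was at 167 and 177.5 FPKM and at 91.9 and 93.1 FPKM. These sets of libraries did not overlap. RPS6, the target of the S6 kinases, changed less and was at 403 and 421 FPKM under sh-NC, against 285 and 284 FPKM under sh-LDB1, with a log2 fold change of -0.53. RPS19, the gene most often mutated in Diamond-Blackfan anemia, was at 391.5 and 376 FPKM and at 238 and 248 FPKM, with -0.66. RPS14, whose loss is tied to the anemia of the 5q- syndrome, was at 241 and 221 FPKM and at 162 and 151 FPKM, with -0.55. RPSA, also known as the laminin receptor, was at 419 and 421.5 FPKM and at 266 and 271 FPKM, with -0.64.

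The large subunit was lower in 43 of its 47 tested genes (91.5%, against 37.4% of all genes tested), with a median log2 fold change of -0.60. The acidic stalk recruits the translation factors, and RPLP0, RPLP1 and RPLP2 were all called lower. RPLP0, its base, was at 974 and 1024 FPKM under sh-NC, against 681 and 681 FPKM under sh-LDB1. RPLP1 was at 529 and 506 FPKM and at 351 and 339 FPKM, and RPLP2 at 427 and 370 FPKM and at 287 and 264 FPKM. The log2 fold changes of these 3 partners lay between -0.58 and -0.53, with standard errors of 0.048 to 0.089. RPL5 and RPL11 carry the 5S rRNA and bind MDM2 when they are free. RPL5 was at 295 and 274 FPKM under sh-NC, against 173.5 and 166.5 FPKM under sh-LDB1, and RPL11 at 394 and 372 FPKM and at 233 and 198 FPKM. Their log2 fold changes were -0.74 and -0.83, with standard errors of 0.055 and 0.091 (limma, adjusted p = 0.000525 and 0.00158).

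Some proteins near the peptidyl transferase centre and the exit tunnel were chosen for their roles after their values were seen. RPL3 was at 572.5 and 531 FPKM under sh-NC, against 406.5 and 402 FPKM under sh-LDB1, with a log2 fold change of -0.45. RPL4, which reaches into the tunnel, was at 406 and 414 FPKM and at 282.5 and 279.5 FPKM, with -0.54. RPL10, which completes the transfer RNA sites late in assembly, was at 469 and 487 FPKM and at 431 and 437 FPKM. Its log2 fold change was -0.14 (limma, adjusted p = 0.0478), the smallest called fall together with that of RPL15. The 2 groups of RPL10 did not overlap, but the call was lost under each of the other 3 scalings and in several further alternatives, among them leaving out either sh-LDB1 replicate or sh-NC replicate 2, and the value was 0.035 at equal summed FPKM. RPL15 was at 147 and 152 FPKM and at 134.5 and 137 FPKM, and its value was 0.033 at equal summed FPKM.

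Several members with small changes were abundant. Among those called, RPS16 was at 455 and 439 FPKM under sh-NC, against 398.5 and 392.5 FPKM under sh-LDB1, and RPL28 at 189 and 189 FPKM and at 165 and 161.5 FPKM. Both lost the call under each of the other 3 scalings. Of the 8 members not called, RPL35A (adjusted p = 0.0511), RPS9 (adjusted p = 0.0548) and RPL17 (adjusted p = 0.0618, limma) were just outside the threshold, and RPL10 (adjusted p = 0.0478) was just inside. RPL35A was at 327 and 243 FPKM under sh-NC, against 208 and 205 FPKM under sh-LDB1, with a wide gap between its controls. RPS27, a small subunit protein with a zinc finger, was at 810 and 753 FPKM and at 762 and 610 FPKM, and its groups overlapped. RPL37 was at 87.2 and 65.2 FPKM and at 68.0 and 55.7 FPKM. RPS23, which sits at the decoding site, was at 150 and 116 FPKM and at 127 and 123 FPKM, with the 2 sh-LDB1 values between the controls. The log2 fold change of RPS23 came to -0.07 ± 0.129 (SE, limma, adjusted p = 0.636), and it turned positive under the other 3 scalings. Across the 79 genes the Spearman correlation of the log2 fold change with log2 mean FPKM was -0.019, and with the length of the canonical transcript 0.15. The genes share the same 4 libraries, so these values are descriptions.

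Some ribosomal proteins have a second gene with restricted expression. RPL3L, the muscle copy of RPL3, was at 0.134 and 0.295 FPKM under sh-NC, against 0.815 and 0.982 FPKM under sh-LDB1, under the filter and with 6 to 41 estimated reads. With no filter on low values it was called higher, as the only member. RPL39L, the copy of the tunnel protein RPL39 known from testis, was at 31.8 and 23.4 FPKM and at 27.4 and 25.2 FPKM, and the groups overlapped. RPL39 itself was at 212 and 196.5 FPKM and at 137 and 143 FPKM. RPS27L, a p53 target beside RPS27, was at 3.20 and 3.10 FPKM and at 3.55 and 3.17 FPKM, with a log2 fold change of 0.07 (limma, adjusted p = 0.483). Of the 3 second copies within the rule, RPL39L and RPS27L were not called and RPL3L was not tested as it was under the filter. RPL39L kept no direction, with 0.044 to 0.11 under the other scalings and 0.16 without sh-NC replicate 1, and it was called lower at -0.27 without sh-NC replicate 2. RPL10L was not analysed here.

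Copies with other symbols behaved less alike. RPL7L1 was at 34.9 and 38.5 FPKM under sh-NC, against 20.5 and 21.2 FPKM under sh-LDB1. RPL22L1, the paralogue of RPL22, was at 13.8 and 15.5 FPKM and at 8.56 and 8.47 FPKM, and RPL26L1 was at 24.5 and 23.7 FPKM and at 13.5 and 16.2 FPKM. These 3 were called lower under all 4 scalings. RPL36AL, whose protein is nearly the same as that of RPL36A, was at 129 and 115 FPKM and at 131 and 113 FPKM, with a log2 fold change of 0.0050 ± 0.096 (SE, limma, adjusted p = 0.967). RPL36A was at 3.29 and 2.91 FPKM and at 1.83 and 1.55 FPKM. Reads of such near-identical pairs can be split between the copies by the counting, which is not described.

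Ribosomal proteins whose symbols the rule does not match were examined too. RACK1, the scaffold of the small subunit, was at 269 and 281 FPKM under sh-NC, against 145 and 143 FPKM under sh-LDB1, with a log2 fold change of -0.92 (limma, adjusted p = 0.000178). FAU, which yields the small subunit protein eS30, was at 230 and 213 FPKM and at 192 and 190 FPKM, with -0.21. Both were called lower as deposited, but FAU lost its call under each of the other scalings, where its value ranged from -0.11 to -0.041. FAU also lost it without either sh-LDB1 replicate.

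To compare the subunits with each other, the FPKM were summed in each library. The 80 genes summed to 32094 and 30731 FPKM under sh-NC, against 20875 and 20331 FPKM under sh-LDB1. The mean sum was 31412 ± 963 FPKM in the controls and 20603 ± 385 FPKM after knockdown (SD, n = 2 each), which is 65.6% of the control. Every sh-LDB1 sum was below every sh-NC sum, and the exact two-sided permutation test gave p = 0.33, the smallest that 2 against 2 libraries allow. As a share of the summed FPKM of all genes, the 80 made up 10.1% and 9.61% in the sh-NC libraries and 7.32% and 7.23% in the sh-LDB1 libraries. The summed FPKM of all genes was itself lower, 285208 and 281397 against 319063 and 319687, and that of the genes outside the 80 was at 91.2% of the control. The ratio of the members' sums was 0.703 to 0.739 under the other scalings, so the sum was lower under each.

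The small subunit summed to 14375 and 13935 FPKM under sh-NC, against 9311 and 8982 FPKM under sh-LDB1, 64.6% of the control. The large subunit summed to 17719 and 16796 FPKM and to 11564 and 11349 FPKM, 66.4% of the control. The ratio of small to large was 0.811 and 0.830 in the controls, against 0.805 and 0.791 after knockdown. Both knockdown libraries were below both controls, and the nearest pair (0.811 and 0.805) was closer than the controls were to each other. The means were 0.820 ± 0.013 and 0.798 ± 0.0097 (SD, n = 2), with an exact permutation p of 0.33. The ratio of the sums in sh-LDB1 was 0.973 times that in sh-NC with all members and 1.004 times without RPS12, so the direction of the summed ratio rested on that gene. The weight of RPS12 in these sums depends on the short length by which its FPKM was divided. The ratio of the median FPKM was also lower, but different genes stood at the middle in the 2 groups. In replicate 1 the small subunit median lay between RPS27A and RPS4X under sh-NC, and between RPS3 and RPS9 under sh-LDB1. The medians of the log2 fold changes were closer, at -0.64 for the small and -0.60 for the large subunit. The median FPKM of the small subunit was at 56.0% of the control and that of the large at 64.0%, and their ratio was 1.31 and 1.44 in the controls, against 1.20 and 1.20 after knockdown (0.873 times, exact permutation p = 0.33). With 2 libraries per group these permutation tests cannot reach 0.05.

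**Figure D3:**
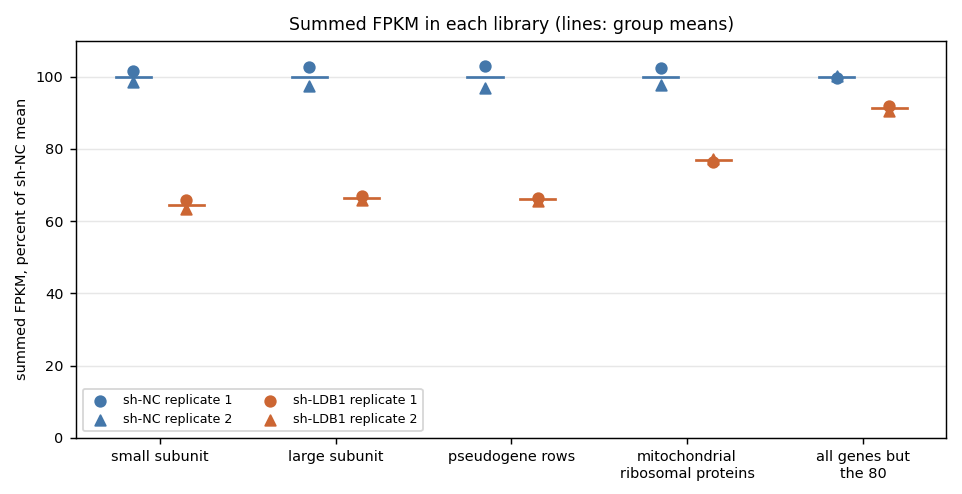
Summed FPKM per library as a percent of the sh-NC mean, with lines for the group means of 2 libraries. In sh-LDB1 the small subunit is at 64.6%, the large subunit at 66.4%, the pseudogene rows at 66.1%, the mitochondrial ribosomal proteins at 76.9% and all genes but the 80 at 91.2%, as deposited.

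Ribosomal proteins have many processed pseudogenes, so it was examined how far reads could have been split. The table held 394 pseudogene rows named after 68 of the 80 genes. Together these rows were at 7785 and 7323 FPKM under sh-NC, against 5027 and 4961 FPKM under sh-LDB1, 66.1% of the control, close to the 65.6% of the genes. For 6 genes (RPL9, RPL22, RPL39, RPS7, RPS10 and RPS28) the pseudogene rows summed to more than the gene. RPS28P7 was at 2179 and 1780 FPKM under sh-NC, against 1420 and 1516 FPKM under sh-LDB1, while RPS28 was at 283 and 292 FPKM and at 205 and 189 FPKM. RPL39P3 was at 1012 and 1006 FPKM and at 547 and 477 FPKM, above RPL39 in every library. RPL9P9 was at 368 and 368 FPKM and at 161 and 155 FPKM, against 187 and 195 FPKM and 93.4 and 90.7 FPKM for RPL9. All 3 of these pseudogene rows were called lower, while RPL22P1, the main row beside RPL22, was not called (-0.25 on the log2 scale). For these 6 genes, all called lower, the level is uncertain. Leaving them out, an alternative chosen after seeing the data, only took them from the count, and the other 65 calls stayed. Of the 95 pseudogene rows tested, 41 were lower (43.2%, near the 37.4% of all genes) and 7 higher (7.37%, against 29.9% of all genes). The 15 rows at a mean of 100 FPKM or more gave 13 lower and 0 higher, with a median of -0.59, and the 60 rows under 10 FPKM gave 17 lower and 7 higher, with a median of -0.22. Adding the pseudogene rows to their genes left 68 members lower, and RPL17 then turned to 0.086.

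**Figure D4:**
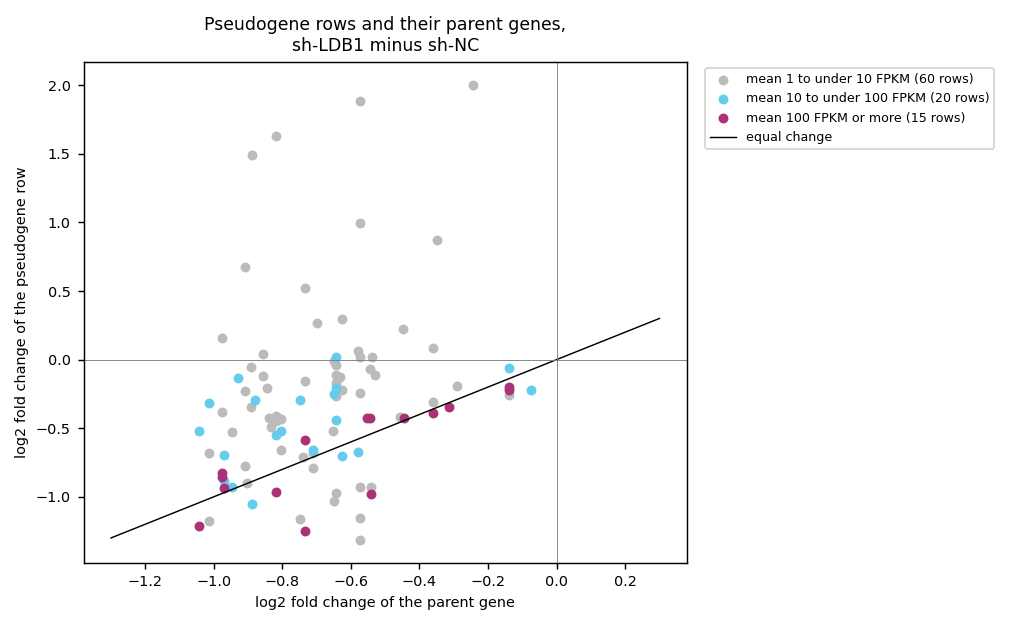
Log2 fold change of 95 tested pseudogene rows against that of their parent gene, sh-LDB1 minus sh-NC, coloured by mean FPKM, with a line of equal change. The 15 rows of 100 FPKM or more lie between -1.25 and -0.20, all below 0, while the rows under 10 FPKM reach from -1.31 to 2.01.

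Some of the lowest members share exons with other genes on the same strand, while RPS27L and RPL3L are as low and do not. Of the canonical transcript of RPL17, 96.9% lies within RPL17-C18orf32 on the same strand, and for RPS10 and RPL26 the overlap with another gene was 84.0% and 65.3%. RPL17 was at 8.04 and 6.27 FPKM under sh-NC, against 5.14 and 5.60 FPKM under sh-LDB1. RPS10 was at 1.97 and 1.64 FPKM and at 0.90 and 0.73 FPKM, and RPL26 at 23.8 and 19.8 FPKM and at 11.7 and 10.2 FPKM. Whether reads in shared exons were dropped is not stated, so these levels are uncertain. The union of the annotated exons ranged from 639 to 9840 bases between members, so that FPKM compared between members depends on the length that was used.

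The promoters were compared with those of all genes. RefSeq windows of 300 bases, 250 before and 50 after the start, were found for 63 of the 80 genes, with 78 windows in all. A start with C and at least 4 further pyrimidines on the sense strand was held by 46 of the 63 (73.0%), against 7.88% of the tested genes with a window and 4.07% of all windows. The tracts were 5 to 19 bases long, with a median of 8, like the runs printed for RPL24 and RPS12. The members were then split by the tract. With it, 42 of 46 were lower with a median log2 fold change of -0.63, and without it 15 of 17 with a median of -0.65. Of all members tested, 89.9% were lower, and 37.4% of all genes tested were. The difference between members with and without the tract was not tested. Among those without it at an annotated start are RPL9, RPS4X and RPS7, which are among the 8 largest falls. The tract was present in RPS23 and RPS27, which were not called. The tract was read only from the annotated base, so a start annotated some bases off would be counted as without it. In the printed windows a pyrimidine run crosses the start of RPS7, and another lies just after that of RPL9. Whether the mRNAs of these genes lack a tract was thus not shown. A member with several starts was counted as having the tract if any start had it.

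Short motifs were searched on both strands of the same windows. CCGGAAG, a core of ETS factor sites, was in 36.5% of members, 24.4% of tested genes and 10.3% of all windows. AAGATGGC, a core of YY1 sites, was in 9.52% of members, 7.19% of tested genes and 2.89% of windows. AGATAA, a core of GATA factor sites, was in 3 members (RPL19, RPL36A and RPL6), 4.76%, against 7.08% and 10.3%. CACGTG, the E-box of MYC-type factors, was in 6.35% of members, 13.1% of tested genes and 7.26% of windows, and TATAAA in 7.94%, 7.44% and 11.5%. Of the 23 members with CCGGAAG, 22 were lower with a median of -0.56 over the 23, and of the 40 without it 35 were lower with a median of -0.65. By comparison, 89.9% of all members tested and 37.4% of all genes tested were lower. A match describes the letters only and does not show a bound factor.

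The ribosomal proteins were next divided by lists written by hand. Those with a bacterial counterpart, which form the ancient core, were lower in 30 of 33 genes with a median of -0.57, and those without one in 41 of 46 with a median of -0.63. Of 19 genes mutated in Diamond-Blackfan anemia, 17 were lower, and RPL35A and RPS27 were not called. This share of 89.5% was close to the 89.9% of all members tested. Of members at a mean of at least 100 FPKM, 60 of 64 were lower with a median of -0.63, and of those under it 11 of 15 with a median of -0.61. The median standard errors of these groups were 0.052 and 0.11. Of the whole family, 71 of 79 were lower (89.9%), where 37.4% of all genes tested were. The less abundant members had the lowest share of these groups (73.3%), and this difference was not tested.

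Of the mitochondrial ribosomal proteins, which are made in the cytosol for another ribosome, 50 of 76 tested genes were lower and 8 higher, with a median of -0.43. These counts were 65.8% and 10.5%, against 37.4% and 29.9% of all genes tested. The mitochondrial proteins were more mixed than the cytosolic family, with changes from -1.66 to 1.31, but their share called higher was below that of all genes. MRPS25 was at 27.4 and 26.6 FPKM under sh-NC, against 7.78 and 7.93 FPKM under sh-LDB1, and MRPL35 at 26.4 and 26.5 FPKM and at 9.57 and 9.11 FPKM. MRPS6 went the other way, at 10.2 and 10.4 FPKM and at 26.4 and 27.5 FPKM. The difference between the 2 families was not tested. At equal summed FPKM, 40 of the mitochondrial genes were lower and 13 higher, where 4047 and 4876 of all 13300 genes tested were.

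Factors that build ribosomes were lower in 41 of 47 tested genes, with 2 higher and a median of -0.76. At equal summed FPKM 36 were lower and 3 higher, where 4047 and 4876 of all 13300 genes tested were. As deposited, 87.2% of them were lower and 4.26% higher, against 37.4% and 29.9% of all genes tested. NOP56, of the snoRNP that methylates rRNA, was at 75.1 and 75.8 FPKM under sh-NC, against 25.7 and 25.9 FPKM under sh-LDB1, and DKC1, the pseudouridine synthase, at 72.6 and 70.1 FPKM and at 29.0 and 27.5 FPKM. Of the 9 escorts of new ribosomal proteins, 8 were lower (88.9%, against 37.4% of all genes), and 6 were at equal summed FPKM. PDCD2, which carries RPS2, was at 30.2 and 31.7 FPKM and at 13.3 and 13.5 FPKM, and BCCIP, which carries RPL23, at 27.6 and 26.3 FPKM and at 12.7 and 13.6 FPKM. TSR2, which carries RPS26, was not called, at 28.8 and 22.4 FPKM and at 30.1 and 32.0 FPKM.

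Other mRNAs known for a 5' TOP tract were lower in 12 of 17 genes and higher in 2, with a median of -0.54. Under each of the other scalings 4 were higher, where 4498 to 4876 of all 13300 genes tested were. As deposited, 70.6% were lower and 11.8% higher, against 37.4% and 29.9% of all genes tested. EEF1B2, a subunit of the elongation factor exchange complex, was at 214 and 221 FPKM under sh-NC, against 92.2 and 96.9 FPKM under sh-LDB1. HNRNPA1 was at 443 and 419 FPKM and at 131 and 128 FPKM, and EIF4A2 at 135 and 138 FPKM and at 47.1 and 46.4 FPKM. The most abundant of the list, EEF1A1, was not called, at 3043 and 3098 FPKM and at 2836 and 2891 FPKM, and TPT1 was called higher, at 78.8 and 84.3 FPKM and at 153 and 150 FPKM. This list thus held genes that moved in different directions, though its share called higher was below that of all genes. Initiation factors outside that list gave 16 lower and 6 higher of 28, with a median of -0.28. These counts were 57.1% and 21.4%, against the same 37.4% and 29.9% of all genes. EIF3J was at 47.8 and 49.7 FPKM and at 15.1 and 14.4 FPKM, and EIF1, called higher, at 153 and 159 FPKM and at 238 and 236 FPKM.

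The genes of mTORC1 signalling and LARP1 gave 5 lower and 6 higher of 12, with a median of 0.14 (4 lower and 6 higher under each of the other scalings). As deposited, the 41.7% lower was near the 37.4% of all genes, and the 6 of 12 higher compare with 29.9% of all genes. Under the other scalings 4047 to 4427 of all 13300 genes tested were lower and 4498 to 4876 higher. EIF4EBP1, the repressor of cap-dependent translation that mTORC1 holds in check, was at 137 and 115 FPKM under sh-NC, against 53.2 and 48.7 FPKM under sh-LDB1. RPS6KB1, the S6 kinase, was at 8.21 and 9.24 FPKM and at 3.67 and 3.40 FPKM. LARP1 itself was at 58.4 and 57.0 FPKM and at 46.1 and 44.7 FPKM, and AKT1S1, an inhibitor within mTORC1, was called higher at 8.49 and 8.14 FPKM and at 14.9 and 15.0 FPKM.

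**Figure D5:**
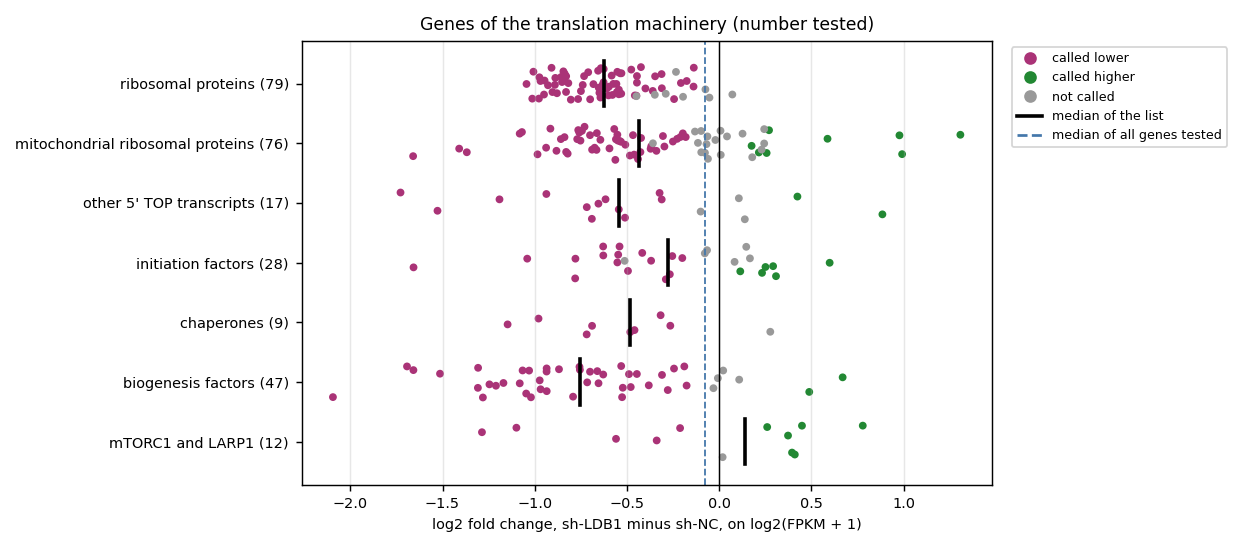
Log2 fold change on log2(FPKM + 1), sh-LDB1 minus sh-NC, of the tested genes of 7 lists, as deposited, with the list median as a black bar and calls by colour. The cytosolic ribosomal proteins form a narrow cloud with a median of -0.63 and no call above 0. The chaperones also have no call above 0 as deposited, with 8 of 9 lower. The mitochondrial ribosomal proteins (8), other 5' TOP transcripts (2), initiation factors (6), biogenesis factors (2) and mTORC1 genes (6) have calls above 0 as deposited, in numbers that change with the scaling. Of all genes tested, 29.9% were called higher as deposited, a share that only the mTORC1 list exceeded.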

How the data were processed

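RNA-seq libraries (Illumina TruSeq, total RNA) were made from 4 samples, 2 sh-NC and 2 sh-LDB1. After read filtering, the authors used HISAT2 2.0.5 and hg38, as named in the submitters' processing notes, and deposited FPKM, 1 value per gene and library. The counting tool, annotation and strand are not given in the sources used here. The authors' count-based test was not repeated, as counts were not used here. Since the deposited values were FPKM, limma 3.58.1 (R 4.3.3, eBayes with trend, no replicate block, Benjamini-Hochberg) was used on log2(FPKM + 1) over genes of mean at least 1 FPKM, which understates changes of low genes. Genes were called at an adjusted p-value below 0.05. Reads were estimated from GENCODE 44 exon lengths, with 93.3% to 93.7% of low values within 0.05 of whole reads in genes of 1 transcript. Counting error only is covered. Promoters came from RefSeq. Python 3.11.15, pandas 2.3.3 and scipy 1.17.1 were used. The steps were tested on simulated data. Columns of no sample numbered 0.

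The ribosomal protein genes and the lists were chosen with earlier results of these data known. The named genes were LDB1, the 8 largest called falls and rises, the 3 highest and 3 lowest members of each subunit, stalk, 5S and paralogue genes, members under the filter, and the 3 smallest adjusted p-values of each list. Some genes are not reported here by name and not drawn in the plots of single genes, but they were kept in counts, medians and sums. Genes named beside them were chosen after their values were seen, for their roles. Alternatives covered pseudocount, filter, scaling, replicate block, each replicate left out, eBayes without trend, voom and pseudogene sums.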

Additional observations from a re-analysis of the deposited data

How the results depend on the processing

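Of 457 recomputed counts, medians and sums, 418 stayed within their limits, and of 1030 recomputed fold changes of 69 named genes, 988 kept direction and call, 28 lost the call, 5 gained it and 9 turned. The count of members lower was 58 to 74 when 1 replicate was left out, and 61 with no filter. Members were higher in 1 case (the large subunit gene RPL3L) with no filter. The cause of the changes below was not tested. Genes higher numbered 2485 at a mean of at least 5 FPKM, where fewer genes were tested. Members lower past the 2-fold limit numbered 0 under each of the other 3 scalings, 1 with pseudogenes added, and 2 to 7 with 1 replicate left out. At equal summed FPKM, with the median of ratios, and with the summed FPKM of all genes but the members, the median log2 fold change was -0.46, -0.53 and -0.50 for the members (-0.65 to -0.57 with 1 replicate left out), -0.48, -0.55 and -0.52 for the small subunit, and -0.43, -0.50 and -0.47 for the large subunit, and the ratio of the members' sum was 0.739, 0.703 and 0.719. The ratio of small to large subunit in sh-LDB1 relative to sh-NC, 0.973 as deposited, was 0.994 with pseudogenes added and 1.004 without RPS12. Other 5' TOP transcripts higher numbered 4 under each other scaling. Chaperones higher numbered 1 at equal summed FPKM, with the summed FPKM of all genes but the members and with voom, and 0 to 1 with 1 replicate left out. Mitochondrial ribosomal proteins higher numbered 5 with no filter, 13 at equal summed FPKM, 5 without trend, and 4 to 10 with 1 replicate left out. Initiation factors higher numbered 2 to 5 with 1 replicate left out. The log2 fold change turned to 0.035 in RPL10 (equal summed FPKM), to 0.086 in RPL17 (pseudogenes added), and to 0.11, 0.044 and 0.075 in RPL39L under the 3 scalings, in the order above. With 1 replicate left out it ranged from -0.27 to 0.16 in RPL39L and from -0.10 to 0.11 in RPL36AL, both not called as deposited. The counts of 68 and 65 members lower without genes of shared exons or dominant pseudogenes were alternatives chosen after seeing the data. They only take the left-out genes from the count and are no new test of the other members.

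The replicate numbers were not used as pairs in the main fit. The deviations of sh-NC replicate 1 and sh-LDB1 replicate 1 from their group means correlated at 0.02 over 13300 genes. With 2 libraries per group, the deviations of replicate 2 mirror those of replicate 1 and add nothing. This value alone cannot settle whether the samples were paired. The replicate block left 71 members lower, and over all genes 4808 lower and 3890 higher. With a replicate left out, the lone library was assumed to vary like the other group. Depth did not limit the members, except those of few estimated reads, such as RPS10 with 26 to 74 and RPL3L with 6 to 41. With 2 libraries per group, a permutation over single values cannot go below 0.33.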
